A study of Mus musculus with 18 samples.

Results

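TTNPB, a synthetic retinoid, was set against its charcoal-serum control in NaF, a carcinoma line from mouse mammary gland. The comparison rests on 6 of the 18 arrays of the study, 3 labelled TTNPB and 3 labelled as charcoal-serum controls, and covers all 22180 genes that a probe set with a single gene symbol named. TTNPB cells received the ligand at 1 µM for 6 hours, and the labels name no vehicle for the controls. Whether a vehicle also differed between the groups is therefore not known. For 48 hours before treatment, cells of both groups were kept in DMEM whose 10% FBS had been treated with charcoal, which takes retinoids, steroids and other lipophilic compounds out of serum, and until then in DMEM with 10% untreated FBS. All-trans retinoic acid, the natural ligand, and GW1516, an agonist of the fatty acid receptor PPARδ, were given at the same dose and time. Cells were in the same serum, with 3 arrays for each ligand. Both ligands are used for comparison with TTNPB, and all 18 arrays entered the estimate of spread behind each test. The study asked how ligands of the retinoic acid receptors and of PPARδ change expression across the genome in a single cell line. No label states whether the arrays of a group came from separate cultures, so every p-value below measures only the spread between arrays.

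Retinoic acid receptors (RARs) are transcription factors that pair with retinoid X receptors (RXRs) on DNA, release corepressors when a retinoid binds and recruit coactivators in their place. Their best known response element is a pair of half-sites in direct repeat, called DR5, and among the genes that carry it are Rarb, which encodes a receptor of the same family, and Cyp26a1, which encodes an enzyme that breaks retinoic acid down. TTNPB, an arotinoid, is an agonist of RARs that does not act on RXRs. In mammary carcinoma cells retinoids are known to restrain growth through RARs, whereas retinoic acid carried by the binding protein FABP5 has been described as reaching PPARδ instead.

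Values are log2 expression values, 1 per gene and array, and a change is the difference between the mean of the TTNPB arrays and that of the controls. A gene was called where the adjusted p of a linear model over all genes (limma, Benjamini-Hochberg) was under 0.05. Background was taken as the value under which 95% of 1390 odorant and pheromone receptor genes lay, and it came to 1.30 with TTNPB and 1.31 in controls. Medians over all probe sets lay between 1.11 and 1.21 on the 6 arrays and between 1.06 and 1.32 on all charcoal-serum arrays. The remaining arrays, from cells in full medium with or without palmitate, had lower medians, 0.473 to 0.548. They also entered the estimate of spread. The mean absolute deviation of a TTNPB array from its group mean, over all genes, was 0.102 to 0.108, and that of a control array 0.0989 to 0.128. GW1516 replicate 3 stood apart at 0.231, and it entered the estimate of the spread that all comparisons share.

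Between the TTNPB and control arrays, 279 of 22180 genes differed, 1.26% of those tested. Of these, 137 rose (0.618%) and 142 fell (0.64%). Changes were mostly under 2-fold, with a median of 0.67 among the rises and -0.61 among the falls, and only 10 rises and 11 falls reached 2-fold. All 279 called genes had arrays that did not overlap between the groups, against 17.9% of all genes tested, and the call itself makes this nearly certain. A total of 273 called genes lay above background in the higher group, and 2.39% of the 11442 genes above background were called. The median change of all genes was -0.00, with 11365 below 0 and 10815 above. These shares over all genes are the ones to set beside the counts in gene lists below, and no list was tested as a set.

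Single arrays mattered to the count. It was 112, 136 and 131 without TTNPB replicates 1, 2 and 3, and 122, 157 and 170 without control replicates 1, 2 and 3. A core of 76 genes, 36 higher and 40 lower with TTNPB, passed whichever of the 6 arrays was left out. Leaving GW1516 replicate 3 out of the estimate of spread gave 833 genes, the 279 among them. Below, a gene described as held by all arrays is one of those 76.

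**Figure D1:**
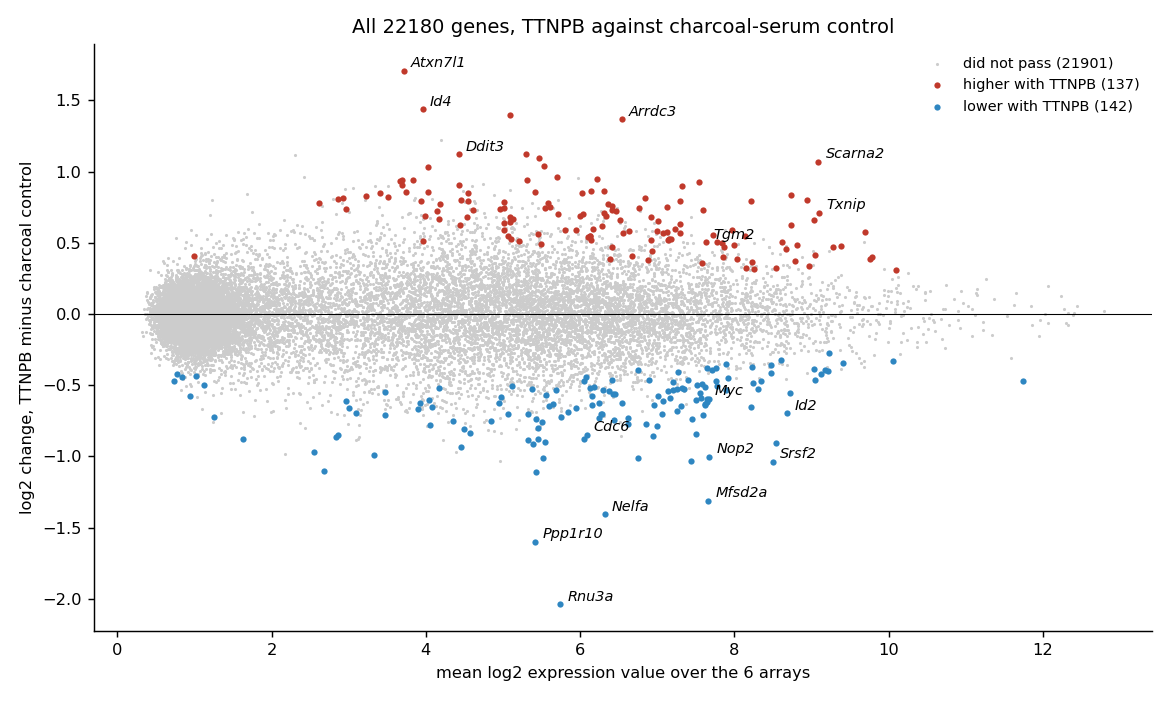
Each point is 1 of 22180 genes, with its mean log2 expression value over the 6 arrays on the x axis and its log2 change, TTNPB minus charcoal control, on the y axis. Red points are the 137 genes that rose, blue points the 142 that fell and grey points those that did not pass; the largest changes, Atxn7l1 at 1.71 and Rnu3a at -2.04, lie in the middle of the range of levels.

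Of 24 RAR target genes measured, 1 rose and none fell, while 18 had a change above 0 and 6 below. Of all 22180 genes, 0.618% rose and 10815 had a change above 0. The median change of the RAR targets was 0.06, beside -0.00 for all genes. Only 16 of the 24 were above background, and with dim genes left out the median was 0.16. Averaged over the 24 genes, the TTNPB arrays stood at 2.97, 2.89 and 2.99 and the control arrays at 2.84, 2.76 and 2.84, without overlap. Such a gap was not particular to RAR targets. The 20 genes of PPAR receptors and PPARδ targets, none of them called, averaged 4.11, 4.10 and 4.15 with TTNPB. In controls they averaged 4.08, 4.01 and 4.09. Against the same controls, 5 RAR targets rose with retinoic acid and 2 with GW1516, a ligand of another receptor. The RAR target that rose with TTNPB was Tgm2, which encodes a protein-crosslinking transglutaminase long known to be induced by retinoids. It lies on chromosome 2 from 158116405 to 158146392 (GRCm38.p6, as all positions here). Its values were 7.80, 7.92 and 7.92 with TTNPB, against 7.40, 7.33 and 7.39 in controls. All TTNPB arrays were above all control arrays, and the rise of 0.50 ± 0.08 (SE), or 1.42-fold, was held by all arrays (limma, adjusted p = 0.00277).

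Rarb and Cyp26a1 carried the DR5 repeat in a window from 250 bases before their start to 50 after it, and they are shown here because they are the promoters in which a receptor of TTNPB is best known to bind. Sequences are RefSeq's for GRCm38.p6, read 5′ to 3′ on the strand of the gene, with the repeat in capitals. Rarb is chr14:16575427-16575726 on the minus strand, with the repeat starting at position -52 from the annotated start, and Cyp26a1 is chr19:37697558-37697857 on the plus strand, with the repeat, there in reverse orientation, at -32.
Rarb: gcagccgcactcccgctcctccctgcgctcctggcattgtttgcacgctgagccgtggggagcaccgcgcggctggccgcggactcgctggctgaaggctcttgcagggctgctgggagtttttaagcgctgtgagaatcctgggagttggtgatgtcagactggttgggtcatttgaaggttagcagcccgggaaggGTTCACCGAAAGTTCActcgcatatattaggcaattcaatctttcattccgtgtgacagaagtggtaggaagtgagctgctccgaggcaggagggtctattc
Cyp26a1: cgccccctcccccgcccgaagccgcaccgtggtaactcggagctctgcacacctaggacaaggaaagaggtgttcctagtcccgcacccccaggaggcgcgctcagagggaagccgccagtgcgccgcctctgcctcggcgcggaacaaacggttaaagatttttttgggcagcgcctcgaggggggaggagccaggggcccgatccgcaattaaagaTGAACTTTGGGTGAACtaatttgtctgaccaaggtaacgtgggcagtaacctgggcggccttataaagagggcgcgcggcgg
The search, on both strands, was for GGTCA or GTTCA, then any 6 bases, then GGTCA or GTTCA. A match was found in 0.213% of 16918 promoters of tested genes, in 2 of 18 RAR targets with a promoter entry, in none of 111 genes that rose and in none of 114 that fell. A match describes these letters only, and no match says only that they are not in this window.

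Rarb, with the repeat shown, had values of 3.29, 3.48 and 3.82 with TTNPB, against 3.37, 2.77 and 2.89 in controls. The highest control array lay above the lowest TTNPB array, and the change of 0.52 (95% interval 0.16 to 0.88) did not pass over all genes (limma, adjusted p = 0.179). Cyp26a1 was under background in both groups, at 1.01, 0.73 and 0.79 with TTNPB and 0.67, 1.13 and 0.64 in controls.

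Cyp26b1, which encodes the other main retinoic acid hydroxylase of the family, had values of 4.15, 3.64 and 4.25 with TTNPB, against 3.41, 3.10 and 3.71 in controls. Groups overlapped through TTNPB replicate 2 and control replicate 3. Its change of 0.60 (0.25 to 0.96) missed the threshold (adjusted p = 0.0969) and met it once TTNPB replicate 2 was left out (0.79, adjusted p = 0.0368). It missed with each of the other 5 arrays left out in turn (adjusted p of 0.0572 to 0.342) and without GW1516 replicate 3 (adjusted p = 0.0507). Plat, which encodes tissue plasminogen activator, stood at 4.71, 4.79 and 5.19 with TTNPB and at 3.93, 4.14 and 4.25 in controls. Its arrays did not overlap, and the change of 0.78 (adjusted p = 0.0953) passed without GW1516 replicate 3 (adjusted p = 0.0459). With each of the 6 arrays left out in turn it did not pass (adjusted p of 0.145 to 0.309). Nrip1, which encodes a nuclear receptor corepressor, changed by 0.43 (adjusted p = 0.273).

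No receptor gene passed. The changes were 0.27 for Rara, 0.30 for Rarg, 0.25 for Rxra and -0.07 for Rxrb, while Rxrg was under background. For Rarg the interval ran from -0.17 to 0.76, so a change of up to about that size is not excluded by these arrays.

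None of 22 genes of retinoid uptake, synthesis and breakdown passed, and their median change was 0.07. Stra6, which encodes the retinol transporter of the plasma membrane, had 9.59, 9.49 and 9.57 with TTNPB and 9.35, 9.28 and 9.46 in controls (change 0.19, adjusted p = 0.682). Rdh10, which encodes the retinol dehydrogenase that starts retinoic acid synthesis, changed by -0.07 and Aldh1a1, which encodes an enzyme of its last step, by 0.28. Dhrs3, which encodes a retinal reductase that retinoids often induce, was under background.

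Binding proteins that are said to direct retinoic acid to its receptors did not pass either. Fabp5 had 4.25, 4.09 and 3.86 with TTNPB, against 4.08, 4.50 and 4.19 in controls, a change of -0.19 with an interval of -0.56 to 0.18 (adjusted p = 0.814). A second bright probe set of Fabp5 gave -0.17. Crabp2, which encodes the protein that carries retinoic acid to RARs, was only just above background, at 1.52, 1.42 and 1.27 with TTNPB and 1.58, 1.38 and 1.22 in controls. Of 20 genes of PPAR receptors and PPARδ targets, none passed. Ppard itself changed by 0.31 (adjusted p = 0.469), Plin2, which coats lipid droplets, by 0.01, and the kinase gene Pdpk1 by 0.03, while Angptl4 was under background. Pdk4, which encodes a kinase that blocks pyruvate oxidation, was at 1.26, 1.49 and 1.26 with TTNPB and 1.39, 1.54 and 1.53 in controls, close to background.

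**Figure D2:**
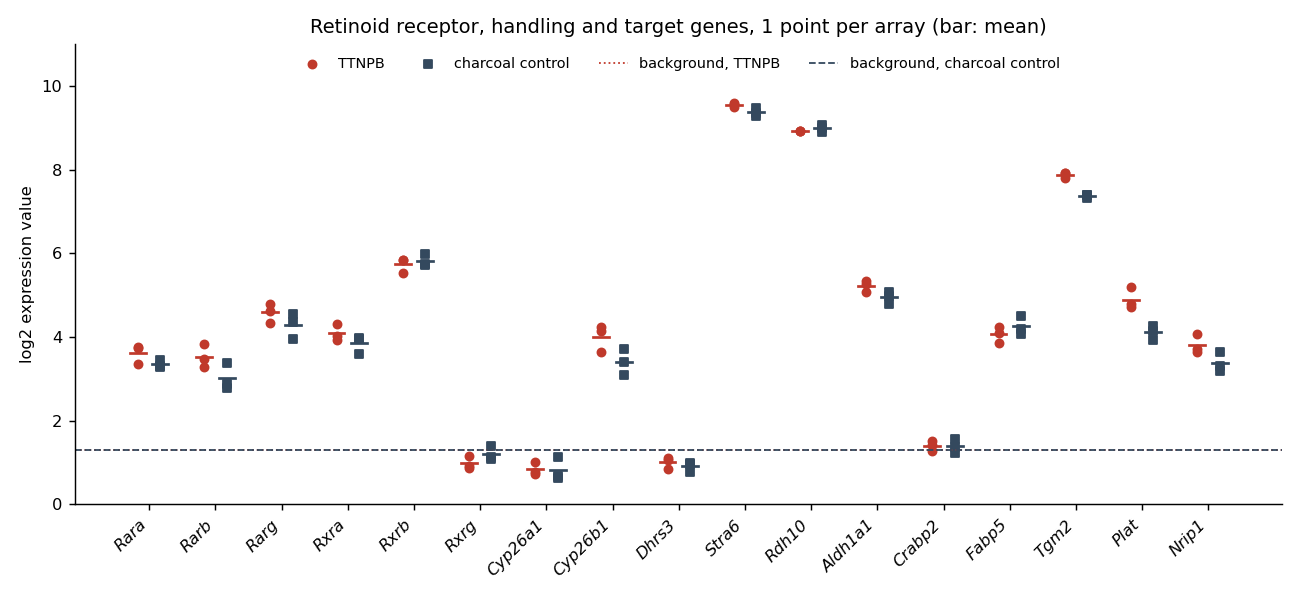
The log2 expression values of 17 retinoid receptor, handling and target genes are plotted for each of the 3 TTNPB arrays (red circles) and the 3 charcoal control arrays (dark squares), with short bars at the group means and horizontal lines at the background of 1.30 with TTNPB and 1.31 in controls. Tgm2 is the gene that passed the test, whereas Rarb and Cyp26b1 overlap between the groups and Rxrg, Cyp26a1 and Dhrs3 lie under background.

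Arrdc3, an alpha-arrestin gene, had the rise with the smallest adjusted p together with Scarna2. Located on chromosome 13 from 80883384 to 80896042, it encodes a protein that helps remove adhesion and adrenergic receptors from the cell surface and is known as a suppressor of breast cancer growth. Its values were 7.24, 7.20 and 7.22 with TTNPB, against 5.69, 5.79 and 6.08 in controls. The groups were far apart, and the rise of 1.37 ± 0.11 (SE), or 2.58-fold, was held by all arrays (limma, adjusted p = 2.54e-06). Txnip, of the same arrestin family, encodes an inhibitor of thioredoxin and of glucose uptake. It had 9.54, 9.39 and 9.43 with TTNPB and 8.72, 8.68 and 8.82 in controls, without overlap, and its rise of 0.71 ± 0.10 was also held by all arrays (adjusted p = 0.000976).

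Among 6 measured genes of that family, 3 rose and none fell, beside 0.618% and 0.64% of all genes, with a median of 0.40. The remaining rise was that of Arrdc4 (0.77, adjusted p = 0.012), another inhibitor of glucose uptake, and it did not pass without TTNPB replicate 1 or 3 or control replicate 2 (adjusted p of 0.0565 to 0.0684). Arrdc1 (0.08) and Arrdc2 (-0.28) did not pass, and Arrdc5 was under background.

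Txnip is known to be induced by sugars through Mlx and its partners, which bind a carbohydrate response element made of a pair of E-box-like sites. A match to CACGNG, then any 5 bases, then CNCGNG was found in its promoter, chr3:96557707-96558006 on the plus strand, starting at -85, and it is printed because Txnip rose while Mlx, described with Myc and Max below, fell.
Txnip: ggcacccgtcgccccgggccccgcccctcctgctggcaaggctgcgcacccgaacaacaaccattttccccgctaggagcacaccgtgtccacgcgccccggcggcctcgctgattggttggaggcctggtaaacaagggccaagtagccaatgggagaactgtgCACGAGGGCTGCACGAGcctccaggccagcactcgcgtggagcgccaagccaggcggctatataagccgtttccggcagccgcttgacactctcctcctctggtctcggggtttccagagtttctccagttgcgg
The capitals mark the match. Searched on both strands, it occurs in 0.609% of 16918 promoters, and among 111 rising genes with a promoter entry Txnip was the 1 that held it. The share was 0.901% of rising genes, 0.877% of 114 falling genes and 0.836% of 8853 genes above background that were not called. A link between the match and the changes of Txnip and Mlx was not tested.

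Atxn7l1, which encodes a protein related to ataxin-7 of the SAGA histone acetylase complex, gave the largest rise. It had 4.67, 4.56 and 4.46 with TTNPB, against 2.69, 2.51 and 3.36 in controls, a rise of 1.71 ± 0.19 (3.27-fold, adjusted p = 8.42e-05) held by all arrays. Control replicate 3 was the highest control but still below every TTNPB array. The other probe sets of Atxn7l1 gave 0.11 and 0.28, so the rise rests on 1 of 3 probe sets.

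The Id genes encode dominant inhibitors of helix-loop-helix transcription factors. Of the 4 measured, 1 rose and 1 fell, while Id1 (0.09) did not pass and Id3 was under background. Id4, a regulator of mammary development, had 4.56, 4.68 and 4.78 with TTNPB and 3.40, 2.86 and 3.45 in controls, a rise of 1.44 ± 0.23 (adjusted p = 0.00246). Id2, which in the mammary gland supports lobuloalveolar differentiation, had 8.42, 8.35 and 8.24 with TTNPB and 9.02, 9.01 and 9.07 in controls, a fall of 0.70 on the log2 scale (-0.70 ± 0.08, adjusted p = 0.000138). Neither pair of groups overlapped, and both calls were held by all arrays.

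Ddit3 encodes CHOP, a transcription factor of the integrated stress response that promotes death under lasting stress. Its values were 4.97, 4.89 and 5.09 with TTNPB, against 3.99, 3.58 and 4.02 in controls, a rise of 1.12 ± 0.15 held by all arrays (adjusted p = 0.000677). It was the 1 of 28 genes of the integrated stress response that passed, and the median of the list was 0.05. Atf4, the factor upstream of Ddit3, changed by -0.20 (adjusted p = 0.607), and the ATF4 targets Trib3, Asns and Atf3 changed by 0.24, 0.20 and 0.33 without passing. Without GW1516 replicate 3, 5 genes of the list rose and 1 fell.

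In the endoplasmic reticulum, 1 of 22 chaperone and unfolded protein genes rose, Hsp90b1 (0.50, adjusted p = 0.00144), which encodes the chaperone GRP94, and the median of the list was -0.07. Its TTNPB arrays stood at 8.87, 8.90 and 8.84, and its control arrays at 8.34, 8.34 and 8.41. None of 13 NRF2 targets or 11 heat shock genes passed. Among genes of metabolism, all arrays held the rise of Sesn3 (0.69), a FOXO target that restrains the growth kinase mTORC1, and that of Cp (0.94), which encodes the copper ferroxidase ceruloplasmin.

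Of 28 genes of hypoxia and glycolysis, 2 rose and none fell, beside 0.618% and 0.64% of all genes, with a median of 0.10. P4ha1, which encodes a subunit of collagen prolyl hydroxylase, had 7.30, 7.18 and 7.32 with TTNPB and 6.66, 6.56 and 6.53 in controls (rise 0.68 ± 0.09, adjusted p = 0.000524). Pgk1, which encodes a glycolytic kinase, rose by 0.31 (adjusted p = 0.0366), a call that ended without any 1 of the 6 arrays (adjusted p of 0.0726 to 0.154). Without GW1516 replicate 3 the list held 6 rises.

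Of 17 clock genes measured, 3 rose and none fell, beside 0.618% and 0.64% of all genes, and the median was 0.24. Per1, a repressor of the core clock, had 6.64, 6.73 and 6.98 with TTNPB and 5.95, 5.94 and 6.26 in controls, a rise of 0.73 ± 0.13 (adjusted p = 0.00625). Bhlhe40, another repressor that also answers to hypoxia, rose by 0.63 (adjusted p = 0.000976), and both were held by all arrays. Nr1d2, which encodes a heme-binding nuclear receptor, rose by 0.75 (adjusted p = 0.00865) but not without TTNPB replicate 1 (adjusted p = 0.0533). Activators of the clock changed less, Arntl by -0.13 and Clock by 0.24, and neither passed.

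Nuclear receptor coregulators included 2 rises among 21 genes, beside 0.618% of all genes that rose, with a median of 0.13. Tbl1xr1, which exchanges corepressors for coactivators, rose by 0.86 (adjusted p = 0.0394), with TTNPB arrays at 6.63, 6.40 and 6.69 and control arrays at 5.58, 5.26 and 6.29. Ppargc1a, a coactivator of mitochondrial genes, rose by 0.36 (adjusted p = 0.0481). Leaving out single arrays ended the call of Tbl1xr1 for 5 arrays and that of Ppargc1a for each of the 6.

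Other large rises held by all arrays were those of Dapl1 (1.09), Epha7 (1.04), an ephrin receptor gene, Adssl1 (0.96), which encodes an enzyme of AMP synthesis, Klhl24 (0.94), Ehd3 (0.93), a regulator of endosomal recycling, and Dennd6a (0.90). Large rises that single arrays undid were those of Selenbp1 (1.40), Postn (1.12), which encodes the matrix protein periostin, Tiparp (1.03), Jak2 (0.91), Kiz (0.91), Shpk (0.94), Zfp189 (0.94) and the noncoding Bcas3os1 (0.94). For Selenbp1 5 arrays did so, with adjusted p up to 0.194, and for Postn 4 arrays, with adjusted p up to 0.0649. Control arrays of Postn were spread widely, at 4.73, 4.12 and 5.36, beside 5.78, 5.84 and 5.96 with TTNPB.

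**Figure D3:**
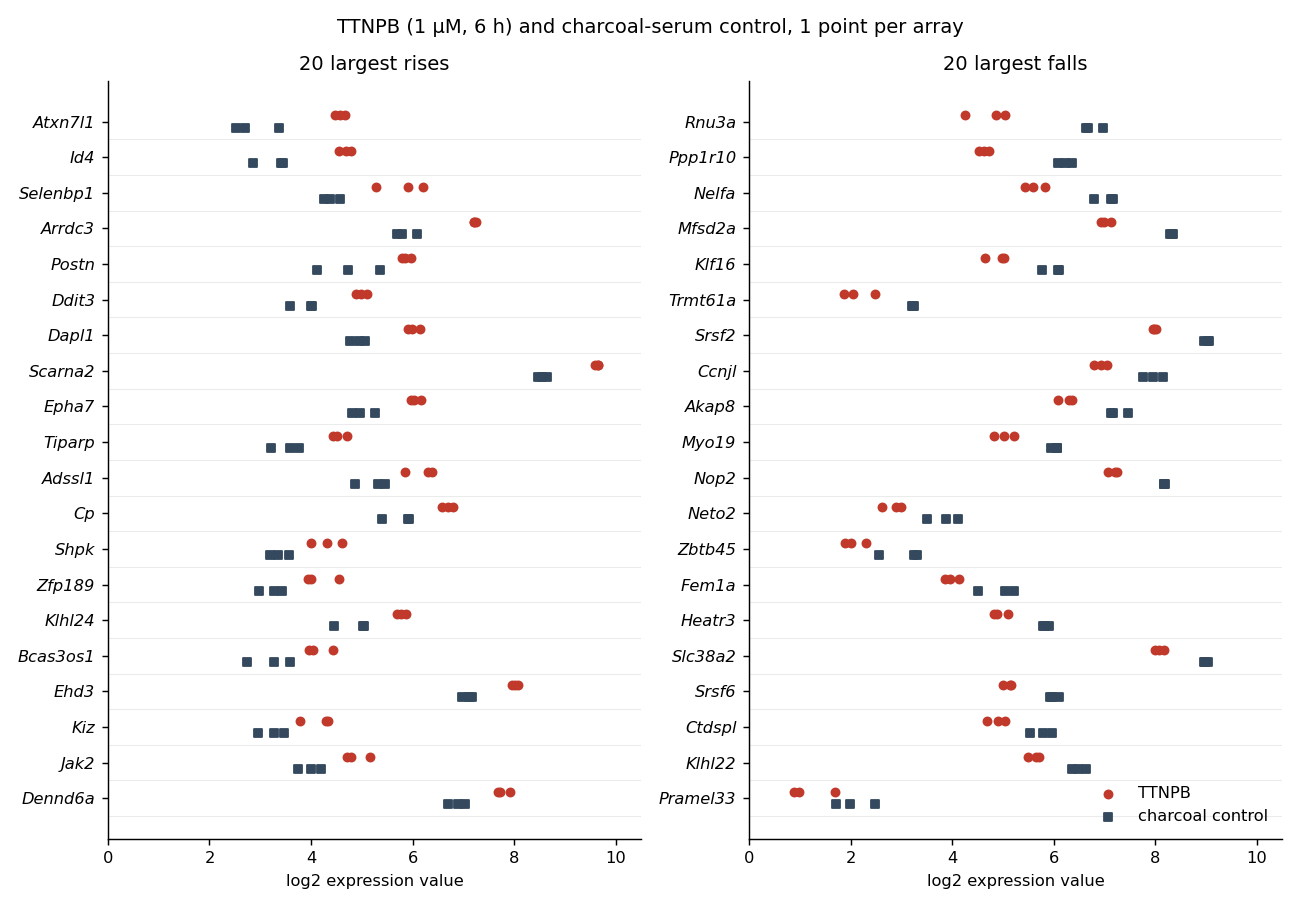
The log2 expression values of the 20 largest named rises (left) and the 20 largest named falls (right) are plotted on the x axis, 1 point per array, with TTNPB (red circles) above charcoal control (dark squares) for each gene. All 40 genes separate the groups; the gap is wide beside the spread for Arrdc3, Scarna2, Srsf2 and Nop2 and narrow for Postn and Pramel33.

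Regulators of transcript elongation were among the largest falls. Nelfa, on chromosome 5 from 33897916 to 33936301, encodes part of the negative elongation factor (NELF), a complex that holds RNA polymerase II paused near promoters. It had 5.58, 5.43 and 5.83 with TTNPB, against 7.16, 6.79 and 7.12 in controls, and the groups did not overlap. The change was -1.41 ± 0.15 (adjusted p = 7.74e-05). Ppp1r10 encodes PNUTS, a phosphatase subunit that slows the polymerase at the end of genes. Its values were 4.52, 4.71 and 4.63 with TTNPB and 6.08, 6.35 and 6.23 in controls, with a change of -1.60 ± 0.18 (adjusted p = 0.000114).

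Of 28 genes of NELF, DSIF, P-TEFb and other elongation factors, 3 fell and none rose, with a median of -0.10. Over all genes, 0.64% fell and 0.618% rose. Hexim1, an inhibitor of the elongation kinase P-TEFb, fell as well (-0.88, adjusted p = 0.0296), but that call ended without any of 5 single arrays (adjusted p of 0.0885 to 0.144). The other NELF subunit genes did not pass, with changes of -0.25 for Nelfcd, 0.13 for Nelfe and 0.20 for Nelfb. Without GW1516 replicate 3 the list held 3 falls and 2 rises.

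Among 33 SR and hnRNP splicing factor genes, 2 fell and none rose, beside 0.64% and 0.618% of all genes, and the median was -0.17. Srsf2, which encodes a splicing activator frequently mutated in leukaemia, had 7.98, 7.94 and 8.01 with TTNPB, against 9.06, 8.95 and 9.04 in controls. Its arrays were tightly grouped and far apart, with a change of -1.04 ± 0.10 (adjusted p = 9.01e-06). Srsf6 changed by -0.90 ± 0.11 (adjusted p = 0.000296), from TTNPB arrays at 5.14, 5.00 and 5.17 and control arrays at 5.96, 5.93 and 6.09. Both falls were held by all arrays.

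Ribosome biogenesis factors, which transcribe, modify and assemble ribosomal RNA in the nucleolus, included Nop2, Bop1 and Utp4 among their falls. Of 39 measured, 7 fell and none rose, 32 had a change below 0 and 7 above, and the median was -0.30. Of all 22180 genes, 0.64% fell by the test and 11365 had a change below 0. Averaged over the 39 genes, the TTNPB arrays stood at 6.02, 6.03 and 6.12 and the control arrays at 6.37, 6.23 and 6.39. The count of falls was 4 without TTNPB replicate 2 or control replicate 1, 5 without TTNPB replicate 1 or 3 or control replicate 3, and 11 without GW1516 replicate 3. The structural genes of the cytosolic ribosome gave no call among 67, with a median of -0.00.

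Nop2 led the list. On chromosome 6 from 125131883 to 125144753, it encodes the nucleolar methyltransferase once known as the proliferation antigen p120. It had 7.21, 7.07 and 7.23 with TTNPB and 8.17, 8.19 and 8.16 in controls, far apart beside their spread. Its linear level with TTNPB was 0.499 of that in controls, a fall held by all arrays (adjusted p = 3.32e-06). Bop1, a scaffold of large-subunit assembly, had 6.64, 6.56 and 6.62 with TTNPB and 7.39, 7.36 and 7.43 in controls (-0.79, adjusted p = 0.00246). Utp4, of the small-subunit processome, changed by -0.47 (adjusted p = 0.00361), and these too were held by all arrays.

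Nop56, a core protein of box C/D small nucleolar particles, changed by -0.56 (adjusted p = 0.00145) on its brightest probe set, while the others gave 0.09 and -0.19. Polr1b, the second largest subunit of RNA polymerase I, changed by -0.58, Imp4 by -0.50 and Ubtf, a polymerase I activator, by -0.38, and each of these calls ended without 3 or more single arrays. Not all nucleolar genes followed: Npm1, Ncl and Ppan changed by 0.27, 0.17 and 0.47, none of which passed.

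Myc and its partners, which bind the E-box CACGTG and are known to drive ribosome biogenesis, also held falls. Of 13 genes of the network 3 fell and none rose, beside 0.64% and 0.618% of all genes, although the median was 0.02. Max, the obligate partner of Myc, had 5.35, 5.41 and 5.41 with TTNPB, against 6.22, 6.07 and 6.05 in controls (-0.72 ± 0.11, adjusted p = 0.00246). Mlx, a Max-like factor that pairs with glucose sensors, had 6.76, 7.07 and 7.12 with TTNPB and 7.65, 7.59 and 7.65 in controls (-0.65, adjusted p = 0.00202). Both were held by all arrays. Myc itself, on chromosome 15, had 7.26, 7.26 and 7.54 with TTNPB and 7.86, 7.95 and 8.03 in controls. Its fall (-0.59 ± 0.13, adjusted p = 0.0284) ended without any of 5 single arrays (adjusted p of 0.0625 to 0.131).

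The promoters of Nop2 and Max are printed because both genes fell and both hold the E-box, which is in capitals. Nop2 is chr6:125131633-125131932 on the plus strand, with the E-box at -60, and Max is chr12:76962199-76962498 on the minus strand, with the E-box at -3, across the annotated start.
Nop2: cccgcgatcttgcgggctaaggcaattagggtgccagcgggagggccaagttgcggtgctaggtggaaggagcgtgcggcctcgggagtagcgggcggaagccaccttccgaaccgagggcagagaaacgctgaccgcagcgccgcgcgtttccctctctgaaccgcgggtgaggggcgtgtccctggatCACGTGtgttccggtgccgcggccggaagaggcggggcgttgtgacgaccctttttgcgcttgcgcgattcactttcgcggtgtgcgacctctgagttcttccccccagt
Max: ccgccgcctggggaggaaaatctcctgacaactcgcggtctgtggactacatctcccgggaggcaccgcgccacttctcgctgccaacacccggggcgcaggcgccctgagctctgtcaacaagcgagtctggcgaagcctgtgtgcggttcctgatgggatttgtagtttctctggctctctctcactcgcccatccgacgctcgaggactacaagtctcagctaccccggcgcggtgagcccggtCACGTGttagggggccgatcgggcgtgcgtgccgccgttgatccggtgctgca
CACGTG reads the same on both strands. It was found in 20 of 114 promoters of genes that fell (17.5%), in 12 of 111 of those that rose (10.8%), in 11.7% of 8853 promoters of genes above background that were not called and in 9.22% of all 16918. Of 34 ribosome biogenesis promoters 10 held it (29.4%), among them Nop2, Imp4 and Utp4. These shares are descriptions of the sequence and were not tested.

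Of 38 DNA replication genes measured, 37 had a change below 0 and 1 above it, with a median of -0.33. By the test 6 fell and none rose. Of all 22180 genes, 11365 had a change below 0 and 0.64% fell by the test. Averaged over the 38 genes, the TTNPB arrays stood at 6.19, 6.17 and 6.28 and the control arrays at 6.56, 6.44 and 6.56, without overlap. List means also did not overlap for 38 proteasome genes, none of which was called. The count of falls among replication genes was 3 without TTNPB replicate 1 or 2 or control replicate 1, 4 without TTNPB replicate 3 or control replicate 2, and 16 without GW1516 replicate 3. In a bulk sample, fewer cells of a kind, here cells in S phase, and less RNA per cell cannot be told apart.

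Cdc6, which loads the replicative helicase at origins, fell the most, with 5.65, 5.78 and 5.55 in TTNPB cells and 6.53, 6.41 and 6.58 in controls (-0.85 ± 0.11, adjusted p = 0.000673). Rrm2, the S-phase subunit of ribonucleotide reductase, had 7.28, 7.36 and 7.26 with TTNPB and 7.91, 7.97 and 7.90 in controls (-0.63, adjusted p = 0.00654). Pola2, a subunit of the priming polymerase, changed by -0.62 (adjusted p = 0.00148). These calls were held by all arrays. Tk1 (-0.52), Mcm4 (-0.47) and Mcm5 (-0.27) also fell, and each of their calls ended without 3 or more single arrays. Pola1, the catalytic subunit that pairs with Pola2, was the exception with 0.39.

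Mitotic genes went both ways. Of 29 measured, 3 rose and 2 fell, beside 0.618% and 0.64% of all genes, and the median was 0.08. The kinesin genes Cenpe (0.68) and Kif11 (0.57) and the kinetochore gene Cenpf (0.52) rose, while Incenp (-0.53), of the chromosomal passenger complex, and the checkpoint gene Bub3 (-0.47) fell. None of these 5 calls held with every single array left out, and without any one of control replicate 1, control replicate 2 or TTNPB replicate 3 no mitotic gene was called. Cdkn1b, which encodes the cyclin-dependent kinase inhibitor p27, had 7.02, 6.87 and 6.90 with TTNPB and 6.39, 6.26 and 6.39 in controls, a rise of 0.58 (adjusted p = 0.00692) that just missed without TTNPB replicate 1 (adjusted p = 0.052). It was the 1 of 8 CDK inhibitor genes that passed. Bcl2, which encodes a survival protein, rose by 0.60 (adjusted p = 0.0438) and lost the call without any 1 array.

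**Figure D4:**
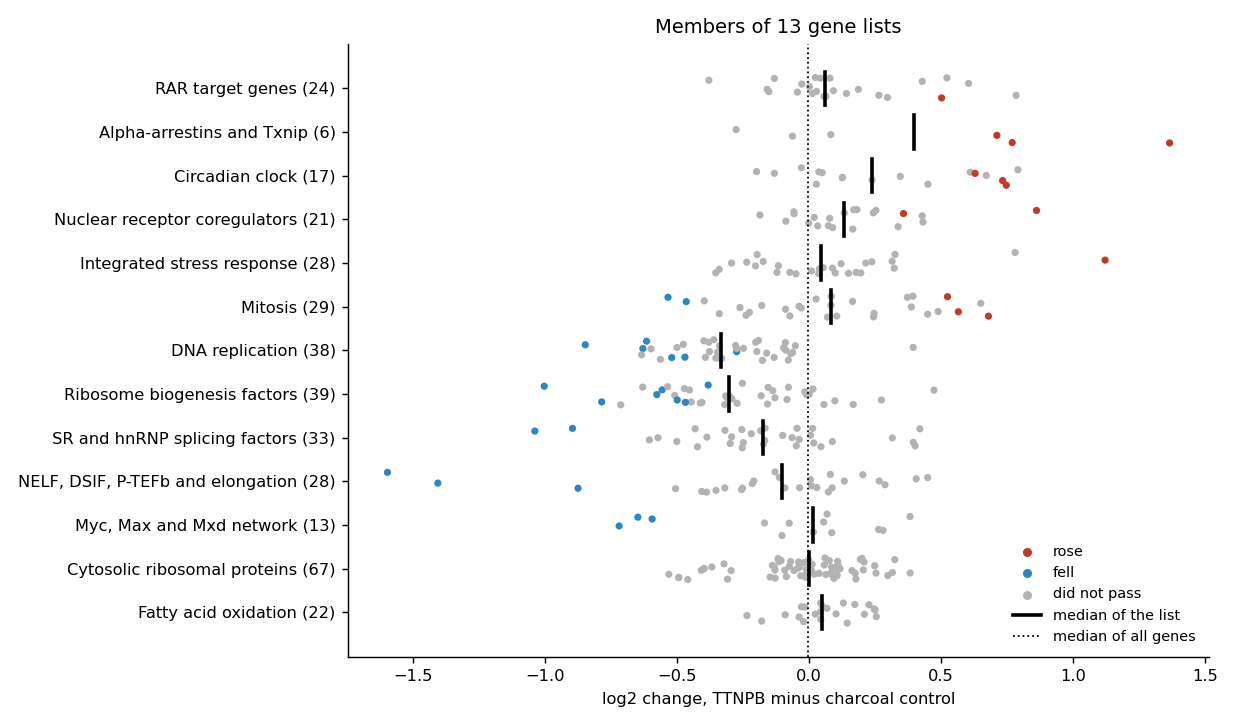
The log2 change, TTNPB minus charcoal control, is plotted on the x axis for each member of 13 gene lists, with the number of measured members in brackets, genes that rose in red, those that fell in blue and those that did not pass in grey. Vertical bars are list medians and the dotted line is the median of all genes; DNA replication (-0.33) and ribosome biogenesis (-0.30) lie furthest to the left, and cytosolic ribosomal proteins (-0.00) lie on the line.

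Lipid genes gave few calls, and none of 22 fatty acid oxidation genes or 21 cholesterol genes passed. Mfsd2a, on chromosome 4 from 122946850 to 122961194, encodes a transporter of lysolipids that carry omega-3 fatty acids. It had 6.92, 6.98 and 7.12 with TTNPB, against 8.32, 8.35 and 8.28 in controls, a change of -1.31 ± 0.13 held by all arrays (adjusted p = 2.26e-05). The triglyceride lipase gene Pnpla2 rose by 0.54 (adjusted p = 0.0403) and the fatty acid elongase gene Elovl7 by 0.86 (adjusted p = 0.0216), and single arrays ended both calls.

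Further large falls held by all arrays were those of Klf16 (-1.11), a repressor of the Krüppel-like family, Trmt61a (-1.10), a tRNA methyltransferase gene, Ccnjl (-1.03), Akap8 (-1.01), a nuclear anchor of protein kinase A, Myo19 (-1.01), a mitochondrial myosin, Neto2 (-0.99), Heatr3 (-0.91) and Klhl22 (-0.88). Slc38a2, which encodes a glutamine and alanine transporter, averaged 8.08 with TTNPB and 8.99 in controls. Although its arrays did not overlap, its call (-0.90, adjusted p = 0.0379) ended without any 1 of the 6. The same was true of E2f6 (-0.80), a repressive E2F, of Csf1 (-0.64), the macrophage growth factor gene, and of Lfng (-0.65), which modifies Notch receptors. In MAPK feedback, Dusp4 rose by 0.47 (adjusted p = 0.00403), held by all arrays, while Dusp7 (-0.48) and Dusp6 (-0.33) fell and lost their calls without any 1 array. Tgfb3, a growth factor gene, rose by 0.34 (adjusted p = 0.00904). Erbb2, which encodes a growth factor receptor of mammary tumours, had 6.98, 6.95 and 6.97 with TTNPB and 7.17, 7.26 and 7.33 in controls, groups that did not overlap, but its change of -0.28 did not pass (adjusted p = 0.234). None of 38 Hox genes, 21 interferon response genes, 73 subunit genes of oxidative phosphorylation, 38 proteasome genes or 35 translation initiation genes passed. Nor did any of 25 genes of TGF-beta and BMP signalling, a list that does not hold Tgfb3.

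Small nucleolar, Cajal body and spliceosomal RNAs gave 2 rises and 3 falls among 82 genes, beside 0.618% and 0.64% of all genes. The median of the list was 0.08. Such RNAs guide the modification of ribosomal and spliceosomal RNA, and many lie within introns of other genes, so a probe set may also read the host transcript. Scarna2, a Cajal body RNA on chromosome 3 from 108554342 to 108554402, had 9.64, 9.64 and 9.58 with TTNPB and 8.46, 8.55 and 8.65 in controls (1.07 ± 0.08, adjusted p = 2.54e-06). Rnu3a, a U3 RNA of early ribosomal RNA processing, had 4.25, 5.05 and 4.87 with TTNPB and 6.64, 6.96 and 6.66 in controls, a change of -2.04 ± 0.34 (adjusted p = 0.00454). U3 has near-identical copies, so the gene behind the signal is uncertain. Both were held by all arrays, whereas Snord1b (0.81), Scarna17 (-0.70) and Snora78 (-0.65) were not.

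The labelled cell type was checked against its markers. Of 11 luminal mammary epithelial markers measured, 8 were above background with TTNPB and 7 in controls, with Krt18 and Cldn3 well above it and Krt8 and Epcam only just, at 1.40 to 1.83 on the TTNPB arrays and 1.33 to 1.76 on the control arrays. Cldn3, which encodes a tight junction claudin, had 9.01, 9.05 and 9.09 with TTNPB and 8.42, 8.40 and 8.45 in controls, a rise of 0.62 ± 0.08 (adjusted p = 0.000243) and the 1 marker called. The summed linear level of the luminal list was 862 to 958 with TTNPB and 642 to 656 in controls. Of markers of other cells, at most 2 of a list were above background: Trp63 of 8 basal markers with TTNPB and Trp63 and Cnn1 in controls, Pdgfra and Pdgfrb of 9 fibroblast markers, Plin1 of 6 adipocyte markers with TTNPB and none in controls, Cd68 and Cd14 of 7 macrophage markers, Ptprc of 7 lymphocyte markers and Cdh5 of 7 endothelial markers. Cdh5 had 8.41, 8.50 and 8.42 with TTNPB and 8.92, 8.98 and 8.80 in controls (-0.46, adjusted p = 0.58). The endothelial sum was 351 to 373 with TTNPB and 457 to 518 in controls, and its part in the results was not tested.

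TTNPB was next compared directly with all-trans retinoic acid at the same dose and time. In TTNPB aromatic rings stand in place of much of the polyene chain of retinoic acid. The compounds share the same 3 controls, so each compound's change is not independent of the other's, and only the direct difference was tested. This was 1 of 2 direct comparisons, with p-values adjusted over the genes of each. Of 22180 genes, 34 differed (0.153%), 10 higher with TTNPB (0.0451%) and 24 lower (0.108%). The share higher with TTNPB, 29.4%, was 51.2% of 43 genes after quantile normalization. The count was 24, 16 and 23 with TTNPB replicate 1, 2 or 3 left out, and 9, 13 and 21 with retinoic acid replicate 1, 2 or 3 left out.

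Cyp26b1 showed the largest gap, with 4.15, 3.64 and 4.25 with TTNPB and 6.21, 6.06 and 5.83 with retinoic acid (TTNPB minus retinoic acid -2.02 ± 0.17, adjusted p = 1.13e-05). Gabrp, which encodes a GABA receptor subunit expressed in basal-like breast tumours, had 9.96, 9.95 and 10.05 with TTNPB, 10.65, 10.63 and 10.68 with retinoic acid and 9.39, 9.47 and 9.36 in controls. It was higher with TTNPB than in controls (0.58 ± 0.06, adjusted p = 7.74e-05) and lower than with retinoic acid (-0.67 ± 0.06, adjusted p = 2.81e-05). Both tests held with any 1 array left out. Ehd3 had 8.07, 7.95 and 8.02 with TTNPB and 8.72, 8.79 and 8.70 with retinoic acid (-0.73 ± 0.11, adjusted p = 0.00677), a difference that 3 single arrays ended (adjusted p up to 0.0628). Cpd, a carboxypeptidase gene (-0.39), the transporter gene Slc6a13 (-0.78) and Cd200 (-0.73) also rose against controls and were lower with TTNPB than with retinoic acid. The transporter gene Flvcr1 fell against controls (-0.62) and was likewise lower than with retinoic acid (-0.70). Each of these differences from retinoic acid ended without 5 or 6 single arrays.

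Of the 10 genes higher with TTNPB than with retinoic acid, 6 were small noncoding RNAs. Over the same controls, the 82 small nucleolar, Cajal body and spliceosomal RNAs had a median change of 0.08 with TTNPB. With retinoic acid that median was -0.36 and with GW1516 -0.20, so as a list these RNAs were lower with those ligands rather than higher with TTNPB. Scarna2 had 9.64, 9.64 and 9.58 with TTNPB and 8.87, 8.92 and 8.99 with retinoic acid (0.69 ± 0.08, adjusted p = 0.000912), and Snord13, which guides acetylation of ribosomal RNA, had 8.41, 8.76 and 8.72 with TTNPB and 7.48, 7.17 and 7.35 with retinoic acid (1.30 ± 0.15, adjusted p = 0.000641). Both differences held with any 1 array left out. Snora75 (1.95), Rny3 (0.90), Scarna6 (0.86) and Snora44 (0.75) were higher with TTNPB too, and single arrays ended these. H1f5, a linker histone gene, had 8.72, 8.83 and 8.88 with TTNPB, 8.27, 8.28 and 8.21 with retinoic acid and 9.30, 9.33 and 9.18 in controls. It fell with TTNPB (-0.46 ± 0.07, adjusted p = 0.00209) and was higher than with retinoic acid (0.55 ± 0.07, adjusted p = 0.00101).

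Of the 279 genes called with TTNPB, 8 differed from retinoic acid, 2 of them with the larger change under TTNPB, and 213 had a 95% interval of the difference within 1.5-fold. Those 2 genes were Scarna2 and Flvcr1. The median absolute difference over the 279 was 0.159. Arrdc3 differed by -0.34 (-0.57 to -0.11, adjusted p = 0.395), Nop2 by 0.10 (-0.08 to 0.27), Max by 0.01 (-0.23 to 0.25) and Txnip by 0.35 (0.14 to 0.55, adjusted p = 0.293). DNA replication genes had a median change of -0.33 with TTNPB and -0.34 with retinoic acid, and ribosome biogenesis genes -0.30 with TTNPB and -0.25 with retinoic acid, each set against the same controls.

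GW1516, a ligand of another receptor, was the remaining direct comparison. Only 15 genes differed (0.0676%), 5 higher with TTNPB (0.0225%) and 10 lower (0.0451%). The share higher with TTNPB, 33.3%, was 56.5% of 23 genes after quantile normalization. The count was 5, 4 and 15 with TTNPB replicate 1, 2 or 3 left out, 5 and 25 with GW1516 replicate 1 or 2 left out, and 45 with GW1516 replicate 3, the array that stood apart, left out. Cpt1a, which encodes the enzyme that admits fatty acids to mitochondrial oxidation, had 6.99, 6.70 and 6.97 with TTNPB and 7.91, 7.84 and 7.75 with GW1516 (TTNPB minus GW1516 -0.95 ± 0.10, adjusted p = 0.000499). Rhob, a small GTPase gene, had 7.43, 7.62 and 7.66 with TTNPB and 8.20, 8.33 and 8.34 with GW1516 (-0.72 ± 0.08, adjusted p = 0.000546). Rhob also fell with TTNPB against controls (-0.38, adjusted p = 0.0277), a call that 4 single arrays ended. The TTNPB and GW1516 arrays of both genes did not overlap, and both differences held with any 1 array left out.

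Slc25a34 (-1.53) and Slc25a42 (-0.53), mitochondrial carrier genes, Zxda (-1.10, adjusted p = 0.00359), Uprt (-0.93), Man2a1 (-0.76), Ppip5k2 (-0.67) and Id2 (-0.54) were lower with TTNPB than with GW1516. Cldn3 (0.45), Scarna2 (0.48), Scarna6 (0.82), Snora44 (0.83) and the translation factor gene Eif4a1 (0.31) were higher. For Id2 the values were 8.42, 8.35 and 8.24 with TTNPB and 8.82, 8.86 and 8.95 with GW1516 (adjusted p = 0.0131), and for Cldn3 they were 9.01, 9.05 and 9.09 with TTNPB and 8.49, 8.78 and 8.53 with GW1516 (adjusted p = 0.023). Leaving out single arrays ended the difference in Id2 for 2 arrays (adjusted p up to 0.0655) and that in Cldn3 for 4 (adjusted p up to 0.183). The difference in Zxda held with any 1 array left out, whereas those in the remaining 9 genes named with it ended for 3 to 5 single arrays each.

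Of the 279 genes called with TTNPB, 5 differed from GW1516 and 208 had an interval of the difference within 1.5-fold, with a median absolute difference of 0.193. Arrdc3 differed by -0.05 (-0.28 to 0.18), Ddit3 by 0.03 (-0.29 to 0.35) and Tgm2 by 0.12 (-0.05 to 0.29). Nop2 was 0.41 lower on the log2 scale with TTNPB than with GW1516 (-0.41, interval -0.59 to -0.24) and Ppp1r10 0.89 lower (-0.89), neither of which passed (adjusted p = 0.0883 for each). The median change of DNA replication genes was -0.33 with TTNPB and -0.32 with GW1516, and that of ribosome biogenesis genes -0.30 with TTNPB and -0.20 with GW1516, again over the same controls.

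**Figure D5:**
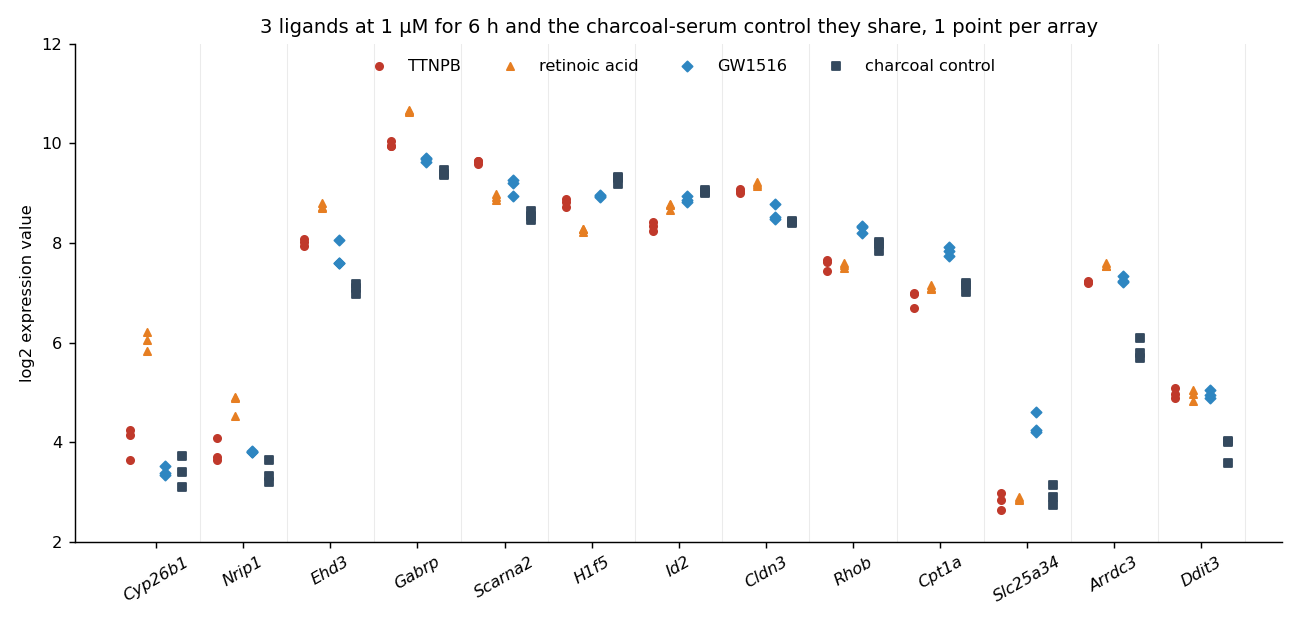
The log2 expression values of 13 genes are plotted for each array of TTNPB, retinoic acid, GW1516 and the charcoal control they share, 3 arrays each. Cyp26b1 is high with retinoic acid only, Slc25a34 and Cpt1a are high with GW1516, and Scarna2 is highest with TTNPB. Id2 is lower with TTNPB than with GW1516, and its difference from retinoic acid did not pass. Arrdc3 and Ddit3 lie above the controls with each of the ligands.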

How the data were processed

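Per the submitters' processing notes, Partek was used to process the arrays, and its version is not given in those sources. The deposited values are log2 expression values, 1 per probe set and array, a scale read from their range. How background correction, normalization and probe summary were done is not given in the sources used here. Of 41345 probe sets, 23521 had 1 gene symbol and were used, and 1814 with several and 16010 with none were left out. Symbols of 23328 were updated by Entrez number (GRCm38.p6). The probe set with the highest mean was kept for 1082 genes with several. Group means of all 18 arrays were fitted with limma 3.58.1 in R 4.3.3 (variance trend, 12 residual degrees of freedom), 2-sided, with Benjamini-Hochberg adjustment over 22180 genes. Dim genes stayed in the fit.

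Named genes were the 20 largest rises and 20 largest falls above background (provisional names and receptor gene clusters left out), up to 6 called members of each of 49 lists, all RAR, RXR and arrestin genes and 16 others; genes outside this rule (such as Plat, Stra6, Gabrp, Cpt1a and the genes of direct comparisons) were chosen after their values were seen. Members and lists were chosen with earlier results of these data known. On simulated data the fit called 27 of 100 true changes of 0.5 and 83 of 100 true changes of 1.0 on the log2 scale. True changes were placed only in genes well above background, with independent normal noise, so these rates do not cover dim genes. A gene that did not pass is therefore not shown to be unchanged. Alternatives were other normalizations, filters, sets of arrays, probe set rules, variance models and thresholds, the replicate number as a block and single arrays left out. The number of arrays limits the precision.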

Additional observations from a re-analysis of the deposited data

How the results depend on the processing

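For TTNPB against charcoal control, the 279 calls became 498 on only the 6 arrays (235 of the 279 among them), 487 after quantile normalization, 454 without dim genes, 622 with array weights (41.2% higher with TTNPB, against 49.1% of the 279), 833 without GW1516 replicate 3, 101 with arrays centred on their medians, 164 with a fold of at least 1.5 and 93 at an adjusted p below 0.01. Single arrays left out gave 112 to 170, and the remaining settings 189 to 351. For TTNPB against retinoic acid, the 34 calls became 9 to 24 with single arrays left out, and 51.2% of 43 calls were higher with TTNPB after quantile normalization, against 29.4%. For TTNPB against GW1516, the 15 calls became 7 on the 12 charcoal-serum arrays, 23 after quantile normalization (56.5% higher with TTNPB, against 33.3%) and 4 to 45 with single arrays left out. With the replicate number as a block, fitted on only the 12 charcoal-serum arrays, the 3 counts were 98, 20 and 2. Those 12 arrays without the block gave 189, 28 and 7. No label says what a number marks, so the numbers were not taken to pair the arrays. The deviations of same-numbered TTNPB and control arrays correlated at 0.0037, 0.2076 and 0.2116. Those of differently numbered arrays correlated at -0.2595 to 0.1115. These values do not settle whether the numbers pair the arrays. Of 97 named genes called, 41 passed under all 18 settings at the same threshold, and no call of a named gene changed sign under any alternative. Where a call was lost, the cause was not tested. Signal limits the result as well, since 11442 of 22180 genes were above background in either group.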

Other observations

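Genes outside the lists also moved, and those named here were chosen after their values were seen. Ero1a, which encodes the oxidase that forms disulfide bonds in the endoplasmic reticulum, had 9.38, 9.29 and 9.34 with TTNPB and 8.48, 8.49 and 8.63 in controls, a rise of 0.80 ± 0.07 (SE, limma, adjusted p = 4.23e-06). Tfrc, which encodes the transferrin receptor, rose by 0.66 ± 0.10 (adjusted p = 0.00215). Apln, which encodes the vascular peptide apelin, had 7.07, 7.09 and 7.07 with TTNPB and 7.89, 7.84 and 8.03 in controls, a change of -0.84 ± 0.15 (adjusted p = 0.00608), and Ror2, a Wnt receptor gene, changed by -0.68 ± 0.12 (adjusted p = 0.00584). Utp25, a further factor of the small-subunit processome, changed by -0.77 (adjusted p = 0.00215). All 5 calls held with any 1 of the 6 arrays left out.

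A few genes with known roles in autophagy were called, picked after their values were seen and with no count of the other genes of that pathway. Map1lc3b and Gabarapl1 encode the lipid-bound proteins that mark the autophagosome membrane and rose by 0.58 (adjusted p = 0.0323) and 0.51 (adjusted p = 0.043). Wipi1, which acts in forming that membrane, rose by 0.56 (adjusted p = 0.0379), and Calcoco1 and Retreg1, receptors for autophagy of the endoplasmic reticulum, rose by 0.57 (adjusted p = 0.0106) and 0.74 (adjusted p = 0.00969). Each TTNPB array was above each control array for all 5 genes, but all 279 called genes had arrays that did not overlap. Leaving out single arrays ended the call of Calcoco1 for 1 array (adjusted p = 0.0772) and that of Retreg1 for 2, and it ended those of the others for 5 or 6 arrays. The direct differences from retinoic acid lay between -0.43 and 0.17 and none passed.

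Among single genes, also picked after their values were seen, Gart, which encodes an enzyme of purine synthesis, changed by -0.61 (adjusted p = 0.0379), Mthfd1, of folate metabolism, by -0.48 (adjusted p = 0.0311) and the DNA methyltransferase gene Dnmt1 by -0.41 (adjusted p = 0.0215). Leaving out 4 or 5 single arrays, 1 at a time, ended each call.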
